A study of Nematostella vectensis with 10 samples.

Results

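Of 25729 *Nematostella vectensis* gene models, 5 were higher in the apical tissue of late planulae than of mid-planulae while their mean level in the rest of the larva was not, by the limits below. They are NVE7850, NVE11155, NVE1872, NVE6995 and NVE14924, which carry only these identifiers here, so nothing is said of what they encode. The genes were chosen by their measured levels in CPM (counts per 1000000 counts of a library), scaled with TMM factors (trimmed mean of M-values). In each, the lowest late planula apical library was at least 2 times the highest mid-planula apical library, the late planula apical mean was at least 5 CPM, and the late planula body mean was less than 25% above the mid-planula body mean. Genes confined to apical tissue, meaning that the lowest apical library was at least 4 times the highest body library with an apical mean of at least 5 CPM, were left out, as were 10 marker genes by name. These conditions used all libraries, so the stage differences below describe the 5 genes and do not test them.

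The larvae, which the labels give no mutation or treatment, were microdissected into an apical piece, which carries the apical organ, and the remaining body. There were 3 late planula apical libraries and 2 mid-planula apical libraries, with 3 late planula body libraries and 2 mid-planula body libraries beside them. Late planulae were 75 to 85 h and mid-planulae 50 to 60 h past fertilisation. Tissue of several batches of larvae was combined for the libraries, and no label says that replicates came from separate cultures, so the spread between libraries may be partly technical.

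*Nematostella* is a sea anemone whose ciliated larva, the planula, swims with its aboral pole ahead before it settles and becomes a polyp. That pole bears the apical organ, a pit of cells with a tuft of long cilia, surrounded by a ring of larval neurons and by gland cells. Between the mid and the late planula the larva approaches metamorphosis, so a gene can change with age throughout the animal or in a particular region. In bulk tissue, more cells of a type and more RNA per cell cannot be told apart.

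The libraries held 14364093 to 27730410 counts, and the smallest level taken as measurable, 3 counts, was 0.104 to 0.223 CPM depending on the library. All 50 values of the 5 genes lay above it, the lowest being 4 counts. The TMM factors moved with stage, at 0.745 to 1.02 in late planula apical and 1.07 to 1.21 in mid-planula apical libraries, and so did the share of counts held by the 100 largest genes, at 37.8% to 46.7% and 30.5% to 34.5% in the same order. Levels of tissue markers are given as a description. The paper took the apical spot genes from its own comparison of apical and body tissue, so their levels cannot check the dissection. The summed level of 6 apical spot genes was 735 to 1078 CPM in late planula apical tissue, 779 to 951 CPM in mid-planula apical tissue and no more than 51.8 CPM in any body library, and 4 markers of pharyngeal gland cells (type 4) summed to no more than 25.3 CPM in any apical library and at least 1183 CPM in every body library.

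Most genes that met the apical condition were also higher in the late planula body. The apical condition and the level condition were met by 208 of the 23333 gene models with at least 15 counts in total. The mean body level of these 208 was 0.820 to 28.6 times as high in late as in mid-planulae, with a median of 3.32, and in 169 of them it was at least 2 times as high. Only 6 fell under the body limit. The sixth, NVE11442, was left out as confined to apical tissue, with 41.5 to 60.6 CPM in late planula apical, 7.71 and 16.0 CPM in mid-planula apical and 0 to 1.17 CPM in body libraries.

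**Figure D1:**
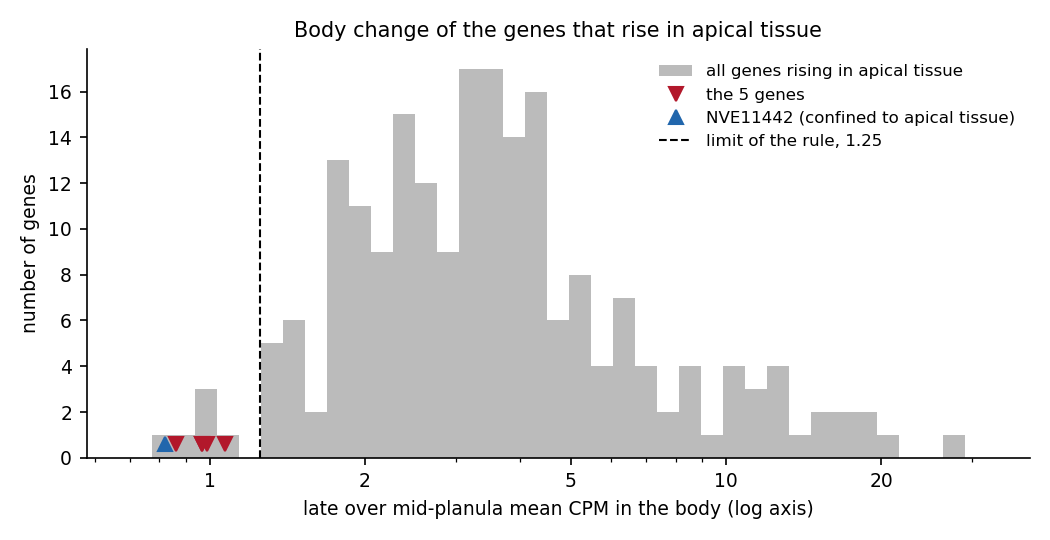
Histogram of the ratio of late planula to mid-planula mean CPM in the body (log axis) over the 208 genes that met the apical and level conditions, with the number of genes on the vertical axis. Red triangles mark the 5 genes, at ratios of 0.861 to 1.07, the blue triangle marks NVE11442 at 0.820, and the dashed line is the limit of the rule, 25% above equal means.

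Beside the other 203 genes that met the apical and level conditions, the 5 genes had a similar apical ratio and another balance between the tissues. The median ratio of late to mid-planula apical means was 4.0 in the 5 genes and 4.28 in the others. In the late planula, the mean of the apical tissue exceeded that of the body in 5 of 5 genes, against 82 of the 203 others, and the median apical to body ratio was 4.52 against 0.896. In the mid-planula the medians were closer, at 0.930 in the 5 genes and 0.661 in the others. The choice of genes fixes much of this contrast, and it is given as a description.

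The 5 genes differ mostly in how their levels compare with the body. NVE7850, with by far the most counts of the 5, had 50.7, 58.9 and 53.9 CPM in late planula apical replicates 1 to 3, against 15.6 and 18.9 CPM in mid-planula apical replicates 1 and 2. In the body it had 13.6, 13.6 and 8.76 CPM in late planulae and 15.4 and 9.36 CPM in mid-planulae. The late planula apical libraries stood clear of all others and differed from each other by no more than 1.16 times, while the body libraries of the stages overlapped. The lower of the mid-planula apical libraries was only just above the highest body library, at 15.6 against 15.4 CPM. The means were 54.5 ± 4.13 CPM in late planula apical and 17.2 ± 2.34 CPM in mid-planula apical tissue, with 12 ± 2.79 CPM in late planula body and 12.4 ± 4.25 CPM in mid-planula body (SD, n = 3 late and 2 mid-planula libraries, here and for the genes below).

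NVE11155 was the gene in which apical tissue lay furthest below the body in mid-planulae. It had 14.8, 9.48 and 10.8 CPM in late planula apical replicates 1 to 3, against 2.85 and 3.0 CPM in mid-planula apical libraries. Body libraries had 11.9, 3.84 and 6.57 CPM in late planulae and 6.82 and 8.55 CPM in mid-planulae. Thus the mid-planula apical libraries were the lowest of the 10, and the late planula apical libraries reached the range of the body without clearing it, since late planula body replicate 1 exceeded 2 of the 3 apical libraries of that stage. The late planula body libraries of this gene varied 3.10-fold among themselves. Its means were 11.7 ± 2.74 CPM in late planula apical and 2.92 ± 0.106 CPM in mid-planula apical tissue, with 7.44 ± 4.10 CPM in late planula body and 7.68 ± 1.22 CPM in mid-planula body.

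NVE1872 lay close to the body in mid-planulae and above it in late planulae. Late planula apical replicates 1 to 3 had 6.72, 10.2 and 6.09 CPM, and mid-planula apical libraries 2.92 and 2.54 CPM. The body had 1.58, 3.89 and 4.50 CPM in late planulae, with the lowest value in replicate 1, and 2.97 and 3.24 CPM in mid-planulae. Every late planula apical library was above every other library, the nearest being 6.09 against 4.50 CPM. The means were 7.65 ± 2.19 CPM in late planula apical and 2.73 ± 0.265 CPM in mid-planula apical tissue, with 3.32 ± 1.54 CPM in late planula body and 3.11 ± 0.188 CPM in mid-planula body.

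NVE6995 was the most apical of the 5 at both stages. It had 4.24, 8.94 and 9.72 CPM in late planula apical replicates 1 to 3, against 1.39 and 1.5 CPM in the mid-planula apical libraries. The body libraries held only 4, 8 and 22 counts in late planulae, or 0.287, 0.384 and 0.860 CPM, and 21 and 6 counts in mid-planulae, or 0.762 and 0.270 CPM. The groups of apical libraries did not overlap with each other or with the body, whose mean was 6.69% of the apical mean in late planulae and 35.7% in mid-planulae. Late planula apical replicate 1 was 2.29 times below replicate 3, the widest range of any of the 5 genes within that group. Its apical means were 7.63 ± 2.96 CPM in late planulae and 1.44 ± 0.0776 CPM in mid-planulae, and its body means 0.510 ± 0.307 CPM in late planulae and 0.516 ± 0.348 CPM in mid-planulae.

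NVE14924 had 8.92, 5.6 and 5.79 CPM in late planula apical replicates 1 to 3, against 0.625 and 2.61 CPM in mid-planula apical replicates 1 and 2. The body had 1.29, 1.01 and 2.19 CPM in late planulae and 2.57 and 0.900 CPM in mid-planulae. The late planula apical libraries stood alone, and the other 7 libraries overlapped in every pairing of their groups. Its mid-planula apical libraries differed 4.17-fold on 18 and 40 counts, and its ratio of late to mid-planula apical means was 4.19. The means were 6.77 ± 1.87 CPM in late planula apical and 1.62 ± 1.40 CPM in mid-planula apical tissue, with 1.5 ± 0.617 CPM in late planula body and 1.74 ± 1.18 CPM in mid-planula body.

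**Figure D2:**
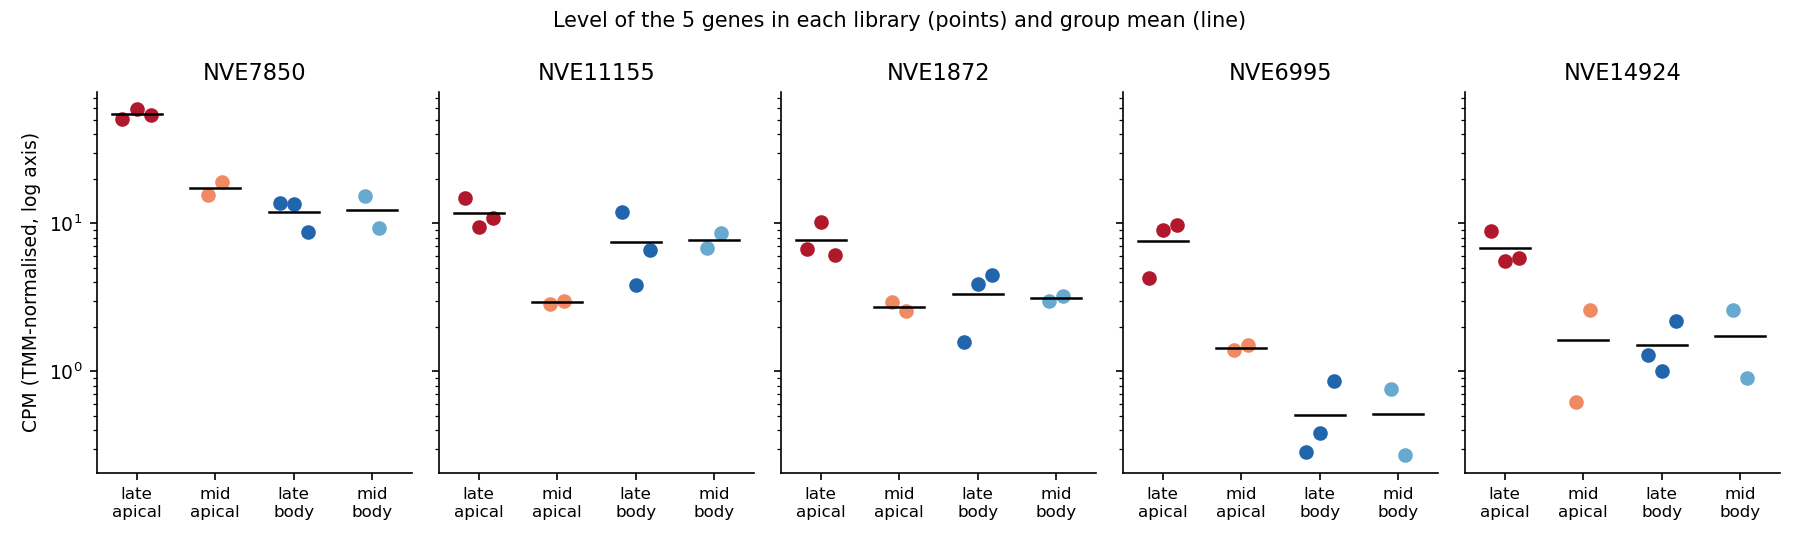
Level of each of the 5 genes (CPM after TMM normalisation, log axis) in late planula apical, mid-planula apical, late planula body and mid-planula body libraries. Each point is a library and each line a group mean. The late planula apical points are above the mid-planula apical points in every panel, and in NVE11155 they share their range with the body.

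With the group means ordered, the late planula apical tissue was the highest of the 4 groups in each of the 5 genes, and the next groups differed between genes. In NVE7850 and NVE6995 the mid-planula apical tissue came next and the body groups, which overlapped, were lowest. In NVE11155 the mid-planula apical tissue was the lowest group and overlapped with no other, the nearest libraries being 3.0 CPM in mid-planula apical and 3.84 CPM in late planula body. In NVE1872 its mean was also the lowest, but the late planula body libraries, at 1.58 to 4.50 CPM, spanned both mid-planula apical and both mid-planula body libraries, so these groups could not be ordered beyond their spread. In NVE14924 the 3 lower groups could not be ordered beyond their spread.

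The comparison of late with mid-planula apical tissue was fitted in edgeR on all 10 libraries as 4 groups, and values are log2 fold changes with standard errors. NVE6995 had 2.40 ± 0.61, NVE14924 2.11 ± 0.67, NVE11155 2.0 ± 0.46, NVE7850 1.66 ± 0.30 and NVE1872 1.49 ± 0.46. The median of the 5 was 2.0, against 0.04 over the 21683 gene models tested, and the 5 ranked between 596 and 1486 from the top by this value. NVE7850 and NVE11155, which are 2 of the 5, passed an adjusted p-value of 0.05, as did 1.18% of all genes tested in that direction. DESeq2 called 5 of the 5, beside 910 genes called higher in all, and limma-voom 1, beside 206. The rule used this contrast, and nothing is read from these counts. The edgeR count also depended on single libraries. Of the 5, 0 passed without late planula apical replicate 3, 1 without late planula apical replicate 1 or late planula body replicate 3, and 3 without late planula body replicate 1. Leaving out a mid-planula library leaves a single library in its group, so those counts are not listed here and need not match. The number called over all genes also moved with the library left out, so nothing particular to the 5 genes is read from this.

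Markers of the apical cell types were looked at over the same contrast. The 3 genes of the neural ring summed to 1019 to 3249 CPM in late planula apical and 1121 to 1917 CPM in mid-planula apical libraries. The median log2 fold change of stage was 0.16 for the 6 spot genes (-0.22 to 0.46) and 0.21 for the 3 ring genes (0.02 to 0.98). The highest of the ring was NVE8226, which the rule leaves out by name, at 0.98 in apical tissue and -0.07 in the body. None of the 10 genes left out by name met the apical, level and body conditions together. The 7 neuropeptide genes summed to 302 to 775 CPM in late planula apical and 328 to 549 CPM in mid-planula apical libraries. Their log2 fold changes were -0.67 to 2.85, with a median of 0.73. Among them *Nv-LWamide* (NVE9858) passed in edgeR, with a log2 fold change of 1.81 ± 0.37, and in DESeq2 but not in limma-voom. Unlike the 5 genes, it was higher in the late planula body too, at 36.7 to 42.3 CPM against 10.2 and 15.4 CPM in mid-planula body. The 2 markers of gland cells of type 1 summed to 114 to 180 CPM in late planula apical and 76.4 to 114 CPM in mid-planula apical libraries, with log2 fold changes of 0.03 and 0.93. Those of type 2 summed to 134 to 329 CPM in late planula apical and 324 to 359 CPM in mid-planula apical libraries, with log2 fold changes of -0.56 and -0.34. Those of type 3 summed to 112 to 137 CPM and 121 to 167 CPM in the same order, with log2 fold changes of -0.28 and -0.05. Those of type 4, low in apical tissue, summed to 6.64 to 9.72 CPM in late planula apical and 7.49 to 25.3 CPM in mid-planula apical libraries, with log2 fold changes of -2.78 to 1.40 and a median of -0.77. Of the 19 spot, ring and gland cell markers, 0 passed the test of stage in apical tissue in edgeR, DESeq2 or limma-voom, and 5 had an unadjusted p-value under 0.05 in edgeR, 3 of them of gland type 4. Of all genes tested, 16.3% had such an unadjusted p-value. The part of these cell types in the levels of the 5 genes was not tested.

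In the body, the log2 fold changes of late against mid-planulae were close to 0 but wide. They were -0.04 ± 0.29 for NVE7850, -0.04 ± 0.42 for NVE11155, 0.12 ± 0.45 for NVE1872, 0.02 ± 0.63 for NVE6995 and -0.21 ± 0.63 for NVE14924. None of the 5 passed in edgeR, while 2.64% of all genes passed in either direction. An unadjusted p-value under 0.05 was reached by 0 of the 5 and by 17.4% of all genes tested. DESeq2 and limma-voom also called 0 of the 5, while DESeq2 called 1247 genes higher and 477 lower in all. The rule limited the body ratio in these same libraries, so the 95% intervals may understate the body increase that could be missed. The interval reached a 1.49-fold increase for NVE7850, 1.82-fold for NVE11155, 2.12-fold for NVE1872, 2.24-fold for NVE14924 and 2.62-fold for NVE6995, so only for NVE7850 and NVE11155 did it stay below 2-fold.

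For 3 genes the body condition rested on mid-planula body replicate 1, which was 1.64 times replicate 2 in NVE7850, 2.82 times in NVE6995 and 2.86 times in NVE14924. Without that library the ratio of late to mid-planula body means was 1.28 in NVE7850, 1.89 in NVE6995 and 1.66 in NVE14924, all above the limit. Likewise, leaving out late planula body replicate 1, where NVE1872 was lowest, gave that gene a ratio of 1.35. NVE11155 kept to the limit without any of the body libraries.

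**Figure D3:**
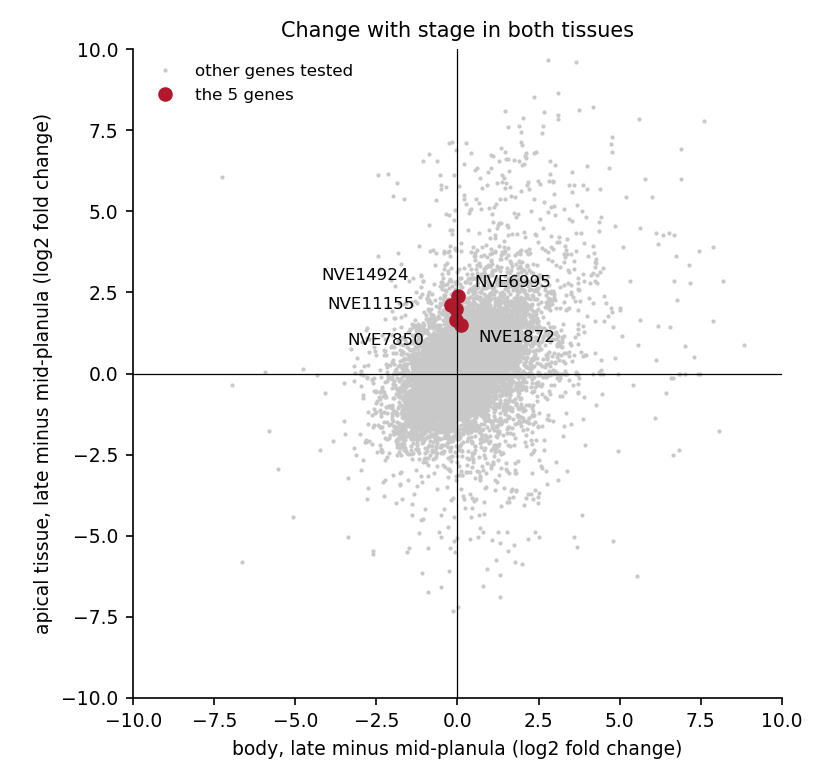
Log2 fold change of late against mid-planulae in apical tissue (vertical axis) and in the body (horizontal axis) for the 21683 gene models tested (grey) and the 5 genes (red). The 5 lie between 1.49 and 2.40 on the vertical axis and within 0.21 of 0 on the horizontal axis, inside the cloud of all genes.

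Whether the change with stage differed between the tissues was estimated as the interaction of stage and tissue, the apical minus the body log2 fold change. It was 2.38 ± 0.87 for NVE6995, 2.31 ± 0.90 for NVE14924, 2.04 ± 0.61 for NVE11155, 1.70 ± 0.41 for NVE7850 and 1.37 ± 0.63 for NVE1872. The rule used both terms of this difference. In edgeR 0 of the 5 passed after adjustment. An unadjusted p-value under 0.05 was reached by 5 of 5, which the rule favours, and by 4.04% of all genes tested. Only 5 of the 21683 genes (0.0231%) passed after adjustment, each in the opposite direction. The DESeq2 Wald test called 1, NVE7850, and limma-voom called 0. Over all genes, this edgeR fit of the 4 groups called 0 with a greater increase in apical tissue than in the body, and DESeq2 called 12.

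Apical tissue was higher relative to the body in late than in mid-planulae in each of the 5 genes. The rule fixes this for the group means, so it is a description and not a result. In late planulae the apical to body log2 fold change was 3.83 ± 0.57 for NVE6995, 2.19 ± 0.27 for NVE7850, 2.16 ± 0.58 for NVE14924, 1.19 ± 0.40 for NVE1872 and 0.66 ± 0.38 for NVE11155. NVE6995, NVE7850 and NVE14924, 3 of the 5, passed an adjusted p-value of 0.05 in edgeR, beside 4.61% of all genes in that direction. The genes were chosen on the same late planula apical values, so this count is no independent evidence. The call of NVE14924 was lost without late planula apical replicate 1 or 3 and without any of the 3 late planula body libraries.

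In mid-planulae the apical to body log2 fold change was 1.45 ± 0.67 for NVE6995, 0.48 ± 0.31 for NVE7850, -0.15 ± 0.70 for NVE14924, -0.18 ± 0.49 for NVE1872 and -1.39 ± 0.48 for NVE11155. No gene of the 5 passed in edgeR, DESeq2 or limma-voom when fitted without regard to replicate number, while 4.29% of all genes passed in either direction in edgeR. In edgeR 2 of the 5, NVE6995 (higher in apical tissue) and NVE11155 (lower), had an unadjusted p-value under 0.05, as did 13.9% of all genes tested. The sign of the difference was therefore not shared by the 5 genes in mid-planulae, with 2 positive and 3 negative, whereas 5 of 5 were positive in late planulae. The sign of NVE14924 in mid-planulae turned positive without mid-planula apical replicate 1 (0.58) or mid-planula body replicate 1 (0.80).

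**Figure D4:**
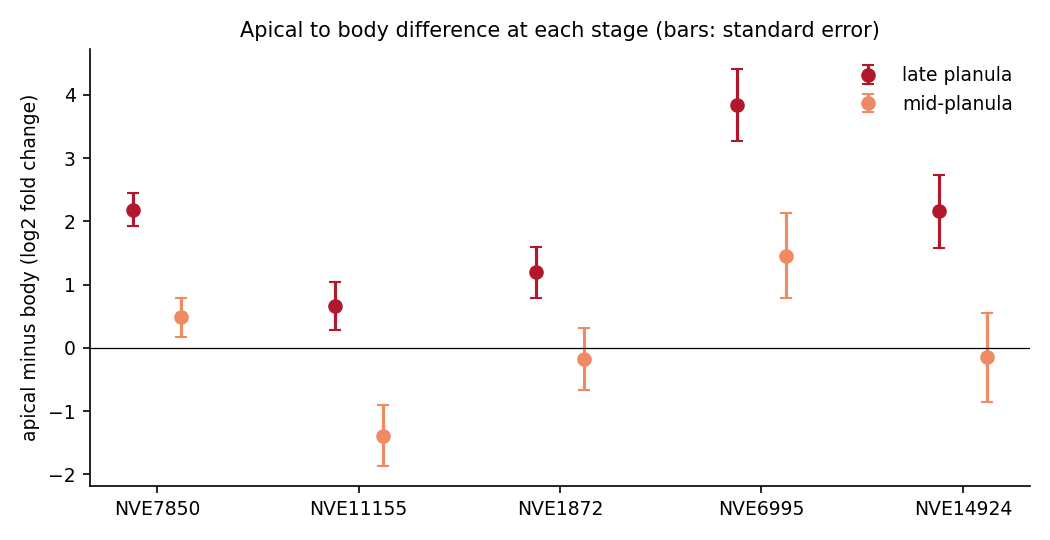
Log2 fold change of apical tissue against body in late planulae (red, left of each pair) and mid-planulae (orange) for the 5 genes, with bars of 1 standard error from edgeR. The late planula value is the higher of each pair, which the rule fixes for the group means. Late planula values run from 0.66 in NVE11155 to 3.83 in NVE6995, and the mid-planula values lie on both sides of 0.

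No late planula apical library was the highest for all 5 genes. Among late planula apical libraries, replicate 1 was highest for NVE11155 and NVE14924, replicate 2 for NVE7850 and NVE1872, and replicate 3 for NVE6995. Replicate 1 was the lowest for NVE7850 and NVE6995, replicate 2 for NVE11155 and NVE14924, and replicate 3 for NVE1872. The biological coefficient of variation that edgeR estimated for a gene was 23.8% for NVE7850, 33.4% for NVE11155, 34.1% for NVE1872, 42.1% for NVE6995 and 46.6% for NVE14924. Among all genes tested these stood between the percentiles 18.7 (NVE7850) and 73.2 (NVE14924), so the values of NVE7850 have the smallest relative error of the set.

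Genes lay close on both sides of the 2-fold apical condition, and the nearest genes lay further apart at the other limits. The 3 genes just inside the 2-fold apical condition were NVE1872, with a ratio of 2.09 between the lowest late and the highest mid-planula apical library, NVE14924 (2.15) and NVE7850 (2.68). Just outside it, and meeting the other conditions, lay NVE20146 (1.98), NVE17137 (1.89) and NVE12292 (1.88), and 32 such genes had a ratio of 1.5 to 2. At the body limit, NVE1872 (1.07) and NVE6995 (0.990) were nearest inside, and NVE7465 (1.27), NVE8264 (1.28) and NVE1660 (1.29) nearest outside. At the 5 CPM limit, NVE14924 (6.77 CPM) and NVE6995 (7.63 CPM) lay inside and NVE19274 (4.95 CPM), NVE5813 (4.89 CPM) and NVE20600 (4.86 CPM) outside. In all, 132 genes failed that limit alone. NVE11442 and the genes outside the last 2 limits were named after their values were seen.

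**Figure D5:**
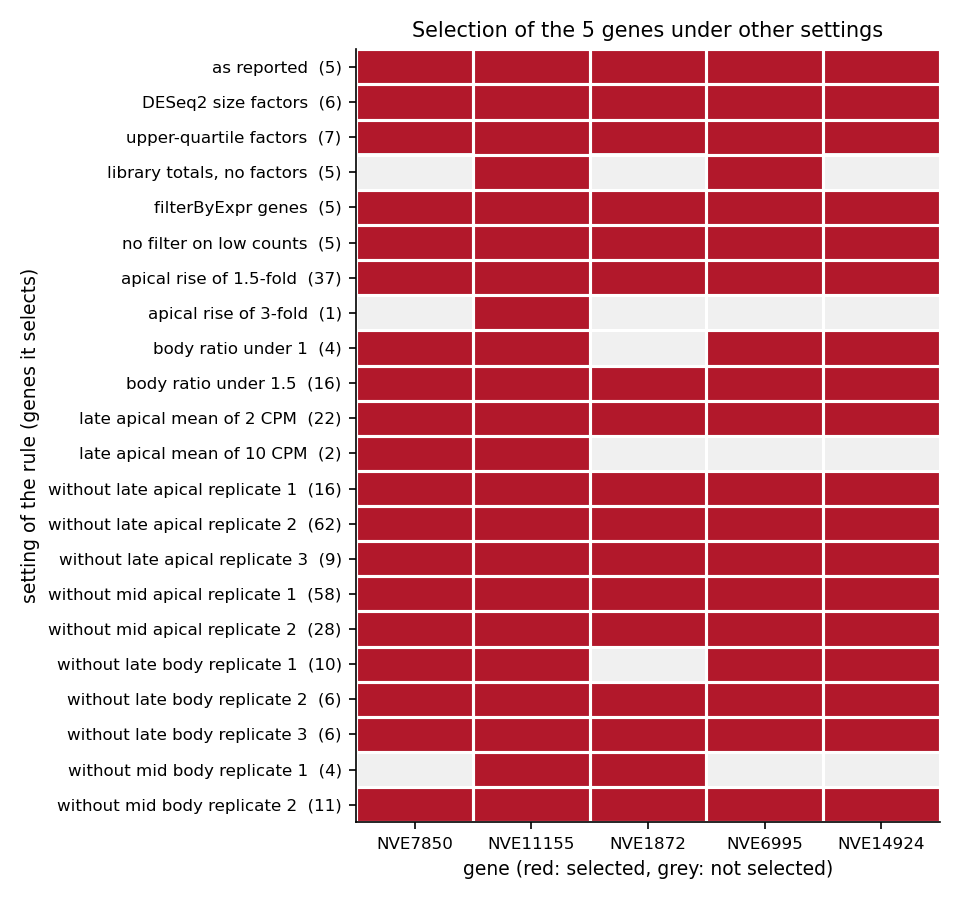
Selection of the 5 genes (columns) by the rule under 22 settings (rows), red where a gene was selected and grey where it was not, with the number of genes selected in all in brackets. NVE11155 is red in every row, and NVE7850, NVE1872 and NVE14924 are grey with library totals alone.

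The 5 genes kept their place under the other TMM gene sets, DESeq2 size factors and upper-quartile factors, and lost it in part when counts were scaled by library totals alone. With totals alone the apical ratio of lowest late to highest mid-planula library was 2.33 in NVE11155 and 2.23 in NVE6995, but 1.99 in NVE7850, 1.55 in NVE14924 and 1.28 in NVE1872, under the limit of 2. The TMM factors given above moved with stage, and which scaling fits these libraries better was not tested. Over 21 changes of setting, NVE11155 was selected in 21, NVE7850 and NVE6995 in 18, NVE14924 in 17 and NVE1872 in 16. Leaving out an apical library kept 5 of 5 genes and let others in, with 9 to 62 genes selected in all, depending on the library. The apical condition is easier to meet with fewer libraries, and why the count differed between the libraries left out was not tested.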

How the data were processed

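Libraries were made with the SENSE mRNA-Seq kit. The submitters' processing notes name Trimmomatic 0.36, STAR, Bowtie2 and HTSeq 0.6, and the files deposited by the authors hold unnormalised read counts on NVE gene models, 1 file for each of 10 libraries. The strand setting and genome build are not given in the sources used here, so counts of overlapping or near-identical models are uncertain. Among counts of 1 to 20, 70.3% to 83.9% per library were even. The reason was not tested, and the counting error may be larger than these counts imply. The floor of 3 counts covers counting error only. Replicates differed by more than sampling noise (chi-square 33.3 to 116 per degree of freedom).

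Levels are TMM CPM over gene models with at least 15 counts in total. Columns left unused numbered 0. Fits used edgeR 4.0.16 (R 4.3.3), quasi-likelihood test, TMM, filterByExpr (minimum count 10, total 15) over 4 groups and Benjamini-Hochberg adjustment over 21683 gene models, all 5 genes included. Intervals are 95% from the standard error. DESeq2 1.42.0, limma-voom (limma 3.58.1), other scalings and filters, 2-group fits, replicate blocks and leaving out each library were alternatives, with halved counts added after the even counts were seen. The fits were tested on simulated data. The members and marker lists were chosen with earlier results of these data known, and the genes named are the 5 members, the genes nearest to the thresholds and marker genes. Of the gene models, 0 matched the RefSeq table by identifier, so no names, positions or sequences are given.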

Additional observations from a re-analysis of the deposited data

How the results depend on the processing

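The rule selected 37 genes with an apical rise of 1.5-fold and 1 with 3-fold, 16 with a body ratio under 1.5, 22 with a late apical mean of 2 CPM and 2 with 10 CPM, against 5 as reported, and other scalings and filters gave 5 to 7. The sets behind similar counts differed. The 5 selected with library totals alone held 2 of the reported genes, NVE11155 and NVE6995. The 4 selected without mid-planula body replicate 1 also held 2, NVE11155 and NVE1872. Leaving out a library gave 4 to 62 genes, namely 16, 62 and 9 without late planula apical replicates 1 to 3, 58 and 28 without mid-planula apical replicates 1 and 2, 10 without late planula body replicate 1, 4 without mid-planula body replicate 1 and 11 without mid-planula body replicate 2. For late against mid-planula apical tissue, 2 of the 5 genes were called, against 5 with DESeq2, 1 with limma-voom and 0 to 3 without a library. In the interaction DESeq2 called 1 and the fits without a library 0. In the late planula tissue comparison 2 to 4 were called, and in the body 0 throughout. The log2 fold changes of the apical stage comparison, the interaction and the late planula tissue comparison stayed positive in every fit run. The rule fixes the first 2 of these signs for the group means and favours the third, so they are no independent evidence.

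Genes called higher and lower in late than mid-planula apical tissue were 255 and 200, against 910 and 549 with DESeq2, 136 and 89 with the 2 groups alone, and 0 to 360 and 0 to 312 without a library. In the interaction 0 were called higher and 5 lower, against 12 and 96 with DESeq2 and 0 to 2 and 0 to 51 without a library, and lower calls were 1 with limma-voom, 10 unfiltered and 3 with at least 10 counts in every library, a filter that drops NVE6995. Between tissues, 1000 were higher in apical tissue and 1343 lower in late planulae (493 to 1105 and 846 to 1338 without a library, 849 lower under that filter), and 380 and 551 in mid-planulae (145 to 460 and 274 to 635, 627 higher with DESeq2, 281 lower under that filter). In the body stage comparison, 431 were called higher and 141 lower, against 1247 and 477 with DESeq2, 730 and 333 with limma-voom, 93 lower with the 2 groups alone, and 0 to 556 and 0 to 223 without a library. The cause was not tested. Where an arm kept 1 library, it was assumed to vary like the other groups.

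The replicate numbers were examined as pairs of apical and body libraries of a stage. Deviations from the group means correlated at 0.24, 0.49 and -0.09 in late planulae, apical replicate 3 correlating best with body replicate 1 (0.36). In mid-planulae the same-numbered libraries correlated at 0.16. The labels do not say whether the numbers mark pairs, and correlations over so few libraries cannot decide it. Used as a replicate block, the numbers gave 1 called gene in the mid-planula tissue comparison (NVE11155), 4 in the late planula one and 0 in the interaction. A block of the number across stages gave 0 in both stage comparisons. Over all genes these blocks called 1526 higher in the late and 628 in the mid-planula tissue comparison, 2 higher and 43 lower in the interaction, 0 in the apical and 60 higher and 3 lower in the body stage comparison.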

Other observations

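Of 9 gene models whose identifier numbers stand next to those of the 5 genes, the ratio of the lowest late to the highest mid-planula apical library was 0.392 to 0.752 in 4 (NVE7849, NVE11154, NVE11156 and NVE14925) and 1.07 to 2.60 in the other 5. Among these, singled out after their values were seen, NVE14923 had means of 3.51 CPM in late planula apical and 1.24 CPM in mid-planula apical tissue, with 1.04 CPM in late planula body and 0.659 CPM in mid-planula body. NVE7851 had 17.1 CPM in late planula apical and 5.24 CPM in mid-planula apical tissue, but 35.1 CPM in late planula body against 8.87 CPM in mid-planula body, unlike NVE7850. Whether consecutive identifiers lie beside each other in the genome was not examined here.

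NVE20600, which missed the level limit at a late planula apical mean of 4.86 CPM, had the lowest late planula apical library 10.8 times above the highest mid-planula apical library, with body means of 0.341 CPM in late and 0.621 CPM in mid-planulae. It was singled out after its values were seen.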
